A study of Homo sapiens with 7 samples.

Results

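The solute carriers are the largest group of human membrane transporters. Many of their gene symbols consist of SLC, a family number, the letter A and a member number. Among 19775 genes listed for H1, a human embryonic stem cell line in wide use, 252 symbols had that form. Solute carriers with symbols of another form, such as SLCO5A1, are not among the 252. The 181 genes described here averaged at least 50 normalised reads across the 7 libraries. The other genes of that form were 64 with a lower mean and 7 that were set aside by name, namely SLC2A1, SLC2A3, SLC7A5, SLC7A11, SLC16A1, SLC16A3 and SLC30A1. Nearest above the limit were SLC16A7 with a mean of 52.1, SLC44A5 with 52.7 and SLC35A1 with 54.0, and nearest below it were SLC22A20 with 48.6, SLC7A7 with 45 and SLC47A1 with 40.9. The 181 genes belonged to 41 families, 9 of which had 1 gene and 13 of which had 5 or more. Whole families were sorted by number into 12 classes, named for their main substrates, their location or the gradient that drives them. A class can therefore hold genes with other substrates.

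Solute carriers move their substrates either down a gradient or against it, and in the second case they borrow the energy of another gradient, most often that of sodium, protons or an exchanged solute. They bring amino acids, sugars, vitamins and metals through the plasma membrane, and others sit in the inner mitochondrial membrane, the lysosome or the Golgi apparatus. Embryonic stem cells divide fast and draw heavily on glucose, glutamine and other imported nutrients, which are supplied by the medium.

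All cells were wild-type H1 cells grown in E8, a defined medium with insulin, transferrin, selenite, ascorbic acid, FGF2 and TGFβ. XMD892, a small molecule used as an inhibitor of the kinase ERK5 (MAPK7), was given at 1 µM for 12 h (1 library), 24 h (2 libraries) or 48 h (2 libraries), and control cells had E8 alone for 48 h (2 libraries). No vehicle is named for the E8 cells, and the 12 h and 24 h cells have no E8 cells of their own time. All libraries were made from poly(A) RNA. Whether replicates came from separate cultures is not in the labels, and p-values therefore measure only how these libraries spread.

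Libraries held 18528689 to 24148186 reads over the listed genes, of which the 181 carriers took 1.08% to 1.21%. Values are normalised read counts, that is gene reads divided by 1 factor per library. All 3 XMD892 times were set against E8, and 48 h against 24 h, by limma on log2(value + 1) over all 16351 genes with a mean of 10 or more, and calls were made where the p-value, adjusted after Benjamini and Hochberg, was under 0.05. All log2 fold changes below are on that scale, with ± SE for the carriers. All 14 embryonic stem cell markers on a list of well-known genes were present, and their summed value was 210900 at 12 h, 214600 and 224900 at 24 h, 202600 and 220900 at 48 h, and 213800 and 240000 in E8. Of the 14, none was higher at any time, while 1 was lower at 12 h (NANOG), 4 at 24 h (NANOG, LIN28B, TDGF1 and SALL4) and 3 at 48 h (NANOG, LIN28B and TDGF1). These are 7.14%, 28.6% and 21.4% of the 14, while 4.89%, 7.56% and 6.45% of all genes tested were lower. NANOG fell by 1.02 at 12 h (adjusted p = 0.0010), 0.63 at 24 h (0.0057) and 1.16 at 48 h (1.6e-05), and the median of the 14 was -0.26, -0.18 and -0.23. Of 8 mesoderm and endoderm markers, 3 were listed, and their sum was 42.9 at 12 h, 77.1 to 87.9 at 24 h, 68.0 to 76.4 at 48 h and 266 to 285 in E8. Trophoblast markers (3 of 6 listed) summed to 96.6 at 12 h, 79.1 to 82.3 at 24 h, 99.4 to 136 at 48 h and 163 to 202 in E8. Fibroblast markers (4 of 7) summed to 6867 at 12 h, 7663 to 8583 at 24 h, 7474 to 8494 at 48 h and 6867 to 8107 in E8, and neuroectoderm markers (5 of 6) summed to 2580 at 12 h, 2547 to 3174 at 24 h, 2961 to 2998 at 48 h and 3519 to 3734 in E8. Of the 4 neuroectoderm markers tested, SIX3 was lower at all 3 times (by 1.16 at 48 h, adjusted p = 6.7e-05) and OTX2 at 24 h and 48 h (by 2.15 at 24 h, adjusted p = 8.4e-05), while SOX1 was higher at 48 h by 1.21 (adjusted p = 0.012). Leaving out a single library ended the calls of SALL4, of NANOG and TDGF1 at 24 h, of SIX3 at 12 h and 24 h, and of OTX2 and SOX1 at 48 h (adjusted p = 0.064 to 0.44). Of the 4 fibroblast markers tested, COL1A1 was higher at 12 h and 24 h and lower at 48 h, and no other passed. MIXL1, the 1 mesoderm and endoderm marker tested, was lower by 2.90 at 12 h, 1.89 at 24 h and 2.04 at 48 h. KRT7, the 1 trophoblast marker tested, was lower by 0.95 at 12 h and 1.14 at 24 h. Some omissions of a single library also ended the calls of KRT7 at 12 h and of COL1A1 at 24 h and 48 h. No listed marker was at 0 in all libraries of a group, and the part of these markers in the results on carriers was not tested. Fewer cells of a type and less RNA per cell cannot be told apart in bulk RNA.

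The pair of E8 libraries stood apart from each other along the GC content of genes. Over 16023 genes, Spearman's rho between a gene's GC content and its difference between replicate 2 and replicate 1 was 0.64 in E8, against 0.001 at 24 h and -0.21 at 48 h. Counts below are therefore also given without either E8 library.

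Measured per kb of the longest annotated transcript, the carriers spanned a wide range of levels, from 4.42 normalised reads per kb for SLC16A7 to 8875 for SLC25A6, with a median of 126. The highest 5 were SLC25A6 and SLC25A5, which exchange ADP for ATP across the inner mitochondrial membrane (8875 and 6287 per kb), SLC3A2, the heavy chain of several amino acid exchangers (3697), SLC25A1, the mitochondrial citrate carrier (2896), and SLC25A39, the mitochondrial glutathione carrier (2341). SLC25A4, SLC25A5 and SLC25A6 are near-identical paralogs and SLC25A6 lies in a region shared by X and Y, so the split of reads among them is uncertain. By unscaled mean the 5 highest were SLC25A6 (18300), SLC25A3 (12355), SLC38A2 (8472), SLC3A2 (8216) and SLC25A5 (8010), where SLC25A3 carries phosphate into mitochondria and SLC38A2 takes up glutamine and other small neutral amino acids. The leading genes of other classes, per kb, were SLC29A1, an equilibrative nucleoside transporter (2057), SLC39A1, a zinc importer (1604), SLC6A6, the taurine transporter (793), SLC5A6, which takes up biotin and pantothenate (772), and SLC20A1, a sodium-phosphate transporter (561). Lower leading genes were SLC50A1, a sugar carrier (436), SLC35A4 of the nucleotide sugar family (432), SLC22A17, a receptor for lipocalin 2 (355), and SLC27A4, a fatty acid transport protein (307).

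**Figure D1:**
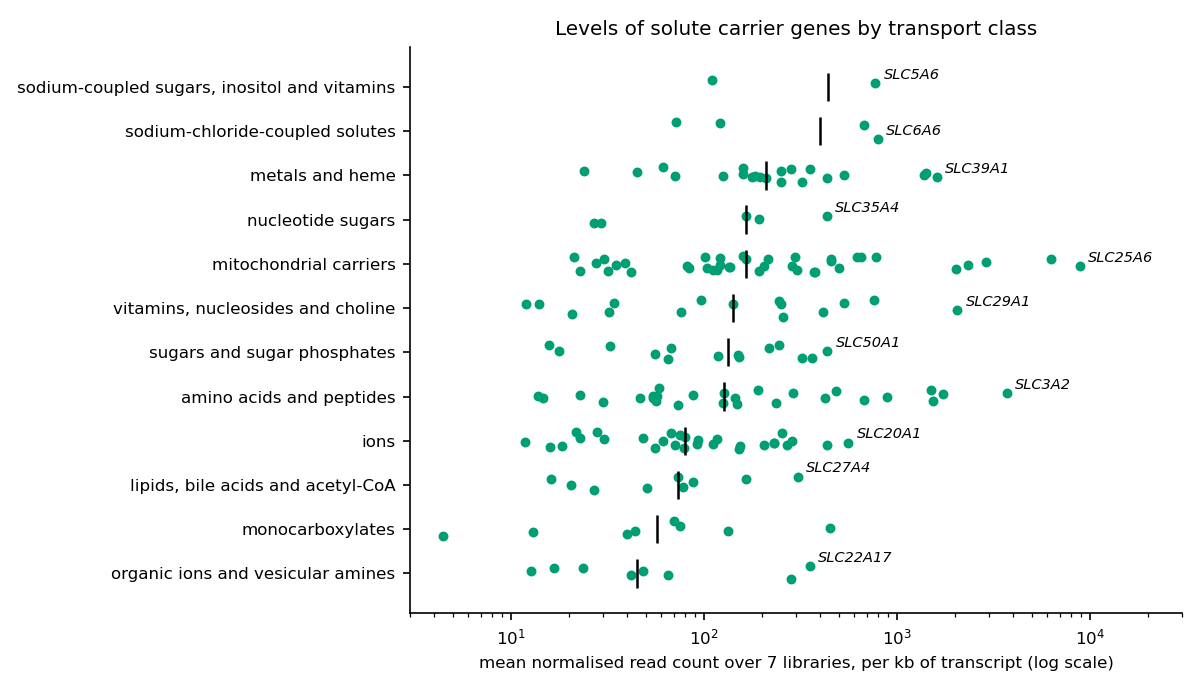
Mean normalised read count over the 7 libraries per kb of the longest transcript (log axis) for each of the 181 carriers, by transport class, with the class median as a bar and the highest gene named in all classes but the monocarboxylates. Mitochondrial carriers reach 8875 per kb (SLC25A6), while organic ion carriers have a median of 45.2. The monocarboxylate class, family SLC16 without SLC16A1 and SLC16A3, has a median of 56.8.

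At 12 h, where 1 library stands against 2, 12 carriers were lower and 6 were higher than in E8 (6.63% and 3.31%, beside 4.89% and 2.56% of all genes, and 9.94% against 7.46% in total). An unadjusted p under 0.05 was found for 44, and the single 12 h library was taken to vary as much as libraries of the other times do. Without E8 replicate 2 the count was 43 (23 higher, 20 lower), without E8 replicate 1 it was 26, and with the GC trend removed it was 40, including all 18. In each of the 18, the 12 h library lay outside the pair of E8 values. Genes that pass tend to be separated in this way, so it is no further support for the calls. The share of all genes so separated was not counted, here or at 24 h and 48 h.

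At 24 h changes ran in both directions, with 21 carriers higher and 13 lower than in E8. These are 11.6% and 7.18% of the 181, beside 8.66% and 7.56% of all genes tested, and together 18.8% against 16.2%. An unadjusted p under 0.05 was found for 69, and the median log2 fold change was 0.055 for carriers and 0.01 for all genes. In each of the 34, both 24 h libraries lay on the same side of both E8 libraries, which passing favours and which adds no support. The number called was 27 (16 higher, 11 lower) without E8 replicate 1 and 74 (47 and 27) when E8 replicate 2 was dropped. With 24 h replicate 1 left out it was 13 (7 and 6), and with 24 h replicate 2 left out 23 (17 and 6). With the GC trend removed it was 52 (31 and 21), including all 34. Kept in every setting run were 9 genes: SLC24A2, SLC22A3 and SLC6A15 among the lower ones, and SLC2A6, SLC12A9, SLC25A28, SLC25A22, SLC38A10 and SLC22A17 among the higher ones.

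At 48 h of XMD892 nearly all called carriers were lower than in E8, though not in every setting below. Of 181, 18 were lower and 2 were higher, which is 9.94% and 1.10%, beside 6.45% and 5.08% of all genes tested. In total 20 were called (11%, against 11.5% of all genes), and 55 had an unadjusted p under 0.05. The median log2 fold change was 0.03 over the carriers and 0.02 over all genes. In each of the 20, both 48 h libraries lay on the same side of both E8 libraries, which again adds no support. A change of more than 2-fold was found for 6 genes, all lower: SLC22A3, SLC24A2, SLC15A3, SLC30A3, SLC6A15 and SLC44A5. The number called was 20 (1 higher, 19 lower) without E8 replicate 1 and 57 (25 higher, 32 lower) when E8 replicate 2 was dropped. With 48 h replicate 1 left out it was 11, and with 48 h replicate 2 left out 13. After each library's trend along GC content was removed, 43 were called (18 higher, 25 lower), and they included all 20. With the GC trend removed and an E8 library left out as well, the count was 19 (3 higher, 16 lower) without E8 replicate 1 and 38 (16 higher, 22 lower) without E8 replicate 2. Of the 20, SLC22A3, SLC24A2, SLC15A3, SLC6A15, SLC1A3, SLC38A5 and SLC39A8 were kept whichever library of E8, 24 h or 48 h was left out. They were also kept in each of the 13 other settings run.

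Between 48 h and 24 h of XMD892, 3 carriers were called and all were lower at 48 h (1.66%, beside 1.2% of all genes in either direction, 0.349% higher and 0.856% lower), with 28 at an unadjusted p under 0.05. That count was 20 without either E8 library, and 1 with replicate 1 of 24 h or of 48 h left out. The 3 comparisons with E8 share the E8 libraries, so a change seen at several times is not independent evidence.

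**Figure D2:**
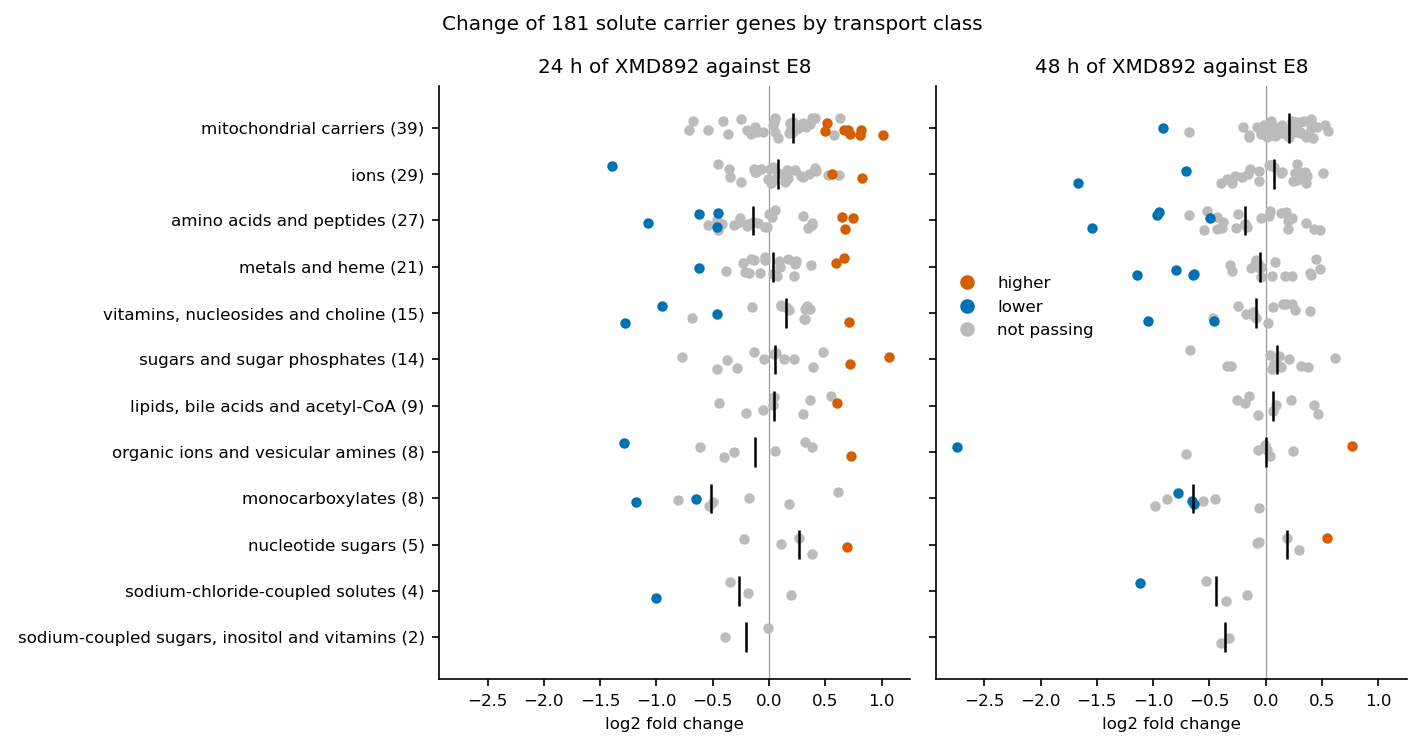
Log2 fold change of each of the 181 carriers at 24 h (left) and 48 h (right) of XMD892 against E8, by transport class, with the number of genes in brackets, the class median as a bar and called genes in colour. Of the 39 mitochondrial carriers, 8 were higher at 24 h and 1 was lower at 48 h. The monocarboxylate class, family SLC16 without SLC16A1 and SLC16A3, had medians of -0.51 and -0.64.

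The GC content of transcripts moved with direction. Carriers higher at 24 h had a median GC content of 59.4% (46.6% to 65.6%), those lower at 24 h of 43.8% (37.6% to 59.8%), and those that did not pass of 50%, where all 181 had 51.1% and all tested genes 48.6%. The 21 carriers higher at 24 h all had a higher value in E8 replicate 2 than in E8 replicate 1, by a median of 0.42 on the log2 scale, whereas over the 181 carriers 103 did and the median was 0.095. Neither the GC medians by direction nor the E8 difference by direction was computed over all tested genes. These values are therefore not shown to be particular to the carriers. The E8 difference followed GC content over 16023 genes, with a rho of 0.64. The part of GC content in the calls was not tested beyond the removal of its trend.

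**Figure D3:**
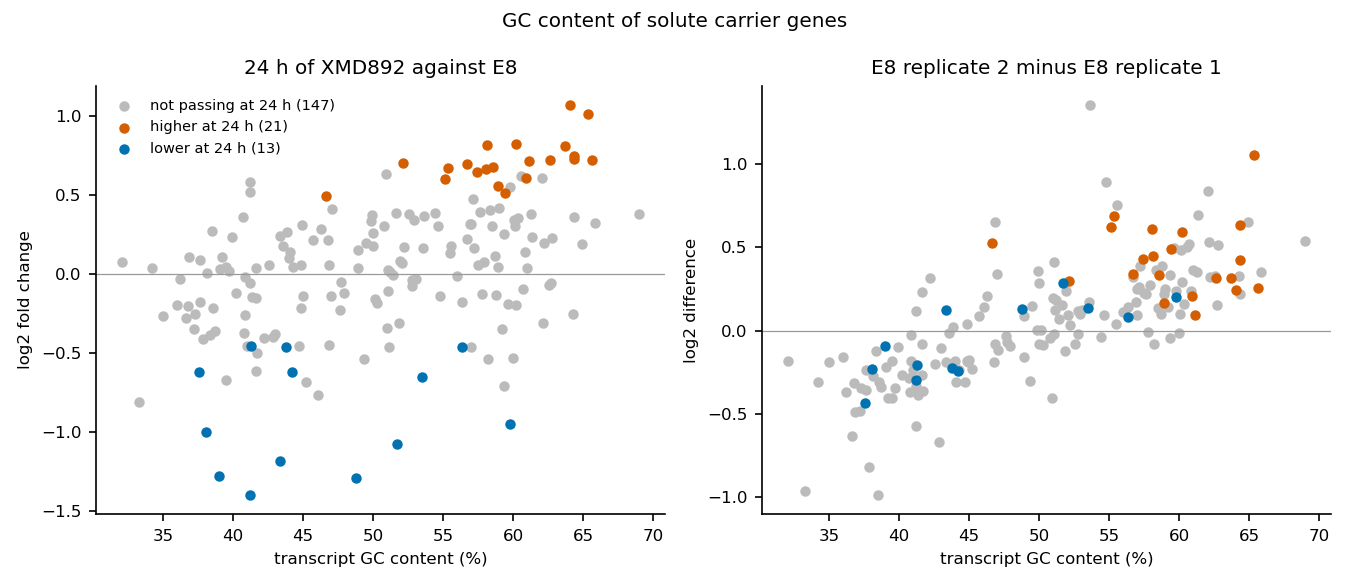
GC content of each carrier's transcript (x axis, %) against its log2 fold change at 24 h of XMD892 over E8 (left) and against its log2 difference between E8 replicate 2 and E8 replicate 1 (right), with genes called at 24 h in colour. The 21 genes called higher lie above 0 in both panels.

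Promoters are shown for 3 carriers with large changes, as examples and not as a contrast of directions: SLC24A2 and SLC30A3 were lower at 48 h, and SLC2A6 had the largest increase of the 181 at 24 h. The sequences are from RefSeq (GRCh38.p14) and run 5′ to 3′ from 250 bases before to 50 bases after the start of the gene, on its own strand. They are chr9:19788988-19789287 (minus strand) for SLC24A2, chr2:27275297-27275596 (minus) for SLC30A3 and chr9:133479050-133479349 (minus) for SLC2A6. Capitals mark 2 motifs on either strand, GGGCGG, the box bound by SP and KLF factors, and TGCNCNC, the core of the metal response element.
SLC24A2: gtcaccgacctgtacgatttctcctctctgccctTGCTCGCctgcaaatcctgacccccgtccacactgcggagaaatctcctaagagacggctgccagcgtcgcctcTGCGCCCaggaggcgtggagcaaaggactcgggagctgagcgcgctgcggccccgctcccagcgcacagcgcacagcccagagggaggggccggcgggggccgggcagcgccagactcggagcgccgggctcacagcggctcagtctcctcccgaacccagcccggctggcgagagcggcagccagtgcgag
SLC30A3: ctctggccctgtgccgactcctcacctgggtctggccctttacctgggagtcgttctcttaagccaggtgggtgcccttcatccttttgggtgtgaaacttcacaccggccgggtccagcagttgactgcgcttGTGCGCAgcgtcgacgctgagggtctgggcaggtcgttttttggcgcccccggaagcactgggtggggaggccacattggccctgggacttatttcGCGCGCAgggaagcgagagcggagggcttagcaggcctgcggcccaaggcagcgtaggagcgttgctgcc
SLC2A6: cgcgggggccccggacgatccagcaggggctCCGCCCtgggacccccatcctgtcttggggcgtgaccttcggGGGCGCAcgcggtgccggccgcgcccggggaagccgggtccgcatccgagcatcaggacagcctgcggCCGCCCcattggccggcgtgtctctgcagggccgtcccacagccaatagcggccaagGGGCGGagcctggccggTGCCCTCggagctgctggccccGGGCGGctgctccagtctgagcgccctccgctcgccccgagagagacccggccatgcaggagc
The windows of SLC24A2 and SLC30A3 held no GGGCGG and had a GC content of 70.3% and 64.0%, with 30 and 20 CG pairs. That of SLC2A6 held 4 GGGCGG boxes and had a GC content of 76.0%, with 33 CG pairs. TGCNCNC occurred 2 times in each window, and no match of one motif overlapped a match of the other. Promoters were found for 146 of the 181 carriers. Among the called ones, GGGCGG stood in 9 of 12 lower at 48 h (75%), in 0 of 2 higher at 48 h, in 5 of 8 lower at 24 h (62.5%) and in 15 of 19 higher at 24 h (78.9%), so the windows shown do not stand for their directions. GGGCGG stood in 72.6% of the 146, against 70.4% of the 11012 promoters of tested genes and 44.6% of all 27305, and TGCNCNC in 62.3% against 64.1% and 55.2%. TGACGT, an element of ATF and CREB factors, stood in 10.3% against 11.3% and 8.32%, the E-box CACGTG in 12.3% against 10% and 7.43%, and the hypoxia element ACGTG, which also lies within CACGTG, in 27.4% against 26.3% and 21.6%. These matches describe letters in a window and say nothing of binding.

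The greatest change among the carriers was in the organic ion class. SLC22A3, an organic cation transporter that clears monoamines such as noradrenaline and histamine from outside cells, had 135 normalised reads at 12 h, 123 and 99.1 at 24 h, 40 and 39.7 at 48 h of XMD892, against 260 and 284 in E8. Its values were lower at each later time, and no group overlapped another. On the log2 scale it fell by 1.00 ± 0.28 at 12 h (adjusted p = 0.031 by limma) and by 1.29 ± 0.23 at 24 h (adjusted p = 0.00074). At 48 h it fell 6.84-fold (-2.74 ± 0.23, adjusted p = 6.2e-08). SLC22A3 was also lower at 48 h than at 24 h (-1.45 ± 0.23, adjusted p = 0.0012). The gene is at chr6:160348268-160452581 on the plus strand (hg38, GENCODE 29).

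SLC22A17 ran the other way in the same family. It had 721 normalised reads at 12 h, 1018 and 1016 at 24 h, 1069 and 1028 at 48 h, against 531 and 711 in E8. It rose by 0.73 ± 0.16 at 24 h (adjusted p = 0.0050) and by 0.77 ± 0.16 at 48 h (adjusted p = 0.0037), and without 48 h replicate 1 the adjusted p at 48 h was 0.055. The 12 h library lay above both E8 values but did not pass (0.23, adjusted p = 0.54). The other 6 genes of the class did not pass at any time, among them SLC22A5, the carnitine transporter (127 at 12 h, 153 and 121 at 24 h, 143 and 126 at 48 h, 134 and 127 in E8), and SLC18A2, the vesicular monoamine transporter (85.3 and 83.3 at 48 h, 89.9 and 56.2 in E8).

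**Figure D4:**
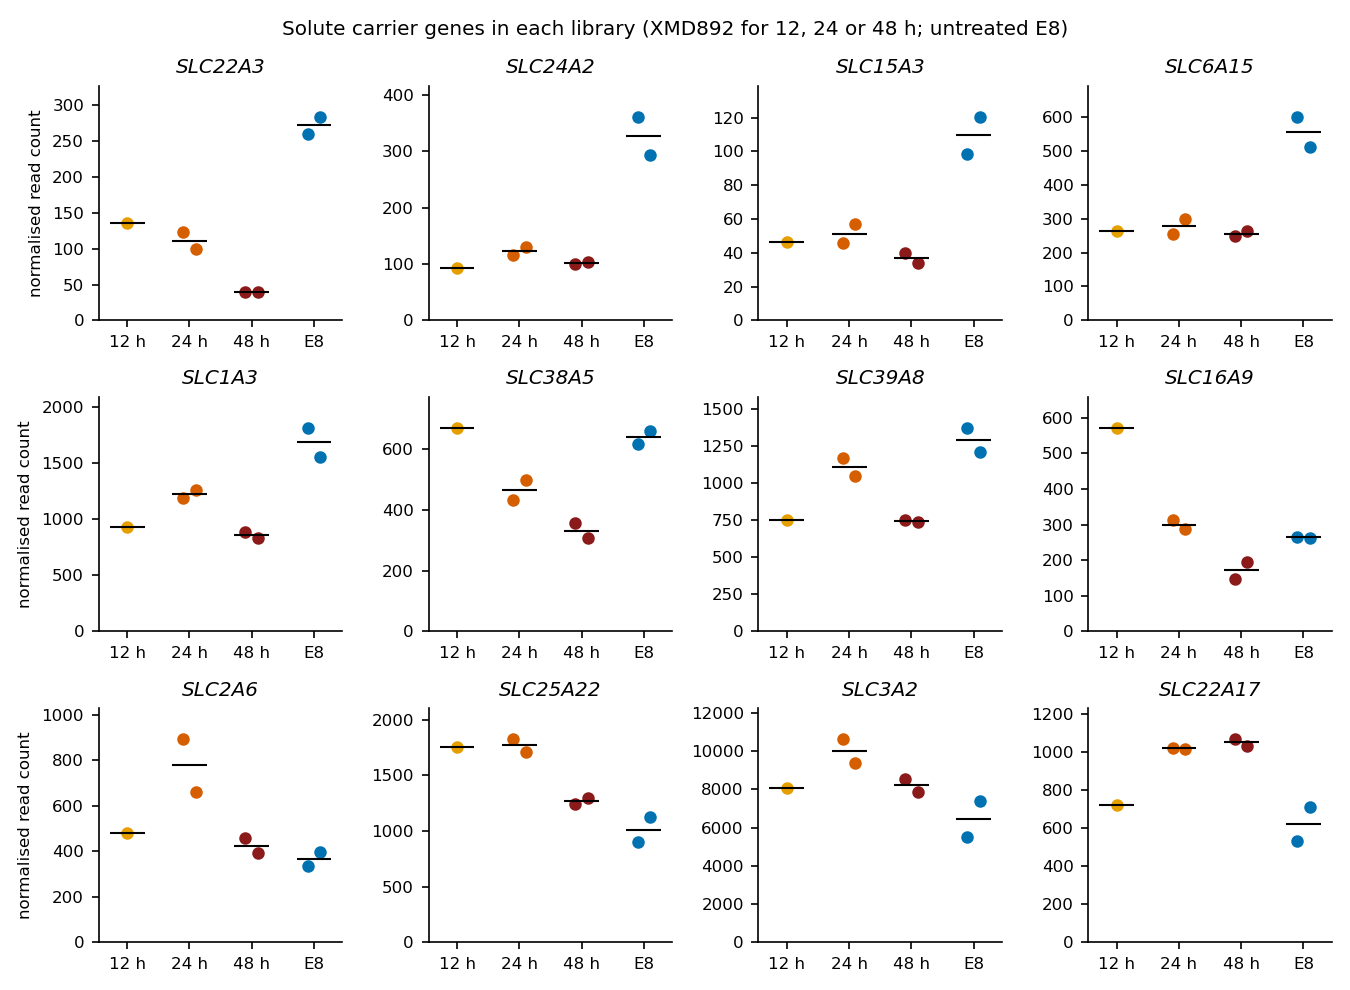
Normalised read counts of 12 carriers in each library (points, linear axes from 0) with group means as bars, at 12, 24 and 48 h of XMD892 and in E8. SLC22A3 is lower at each time and ends at 40 and 39.7, SLC16A9 is above E8 at 12 h and below it at 48 h, and SLC2A6 is highest at 24 h.

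Among 27 carriers of amino acids and peptides, 3 were lower at 12 h (11.1%), 3 were higher (11.1%) and 4 lower (14.8%) at 24 h, and 4 were lower (14.8%) and none higher at 48 h. Of all tested genes, 2.56% were higher and 4.89% lower at 12 h. The shares were 8.66% higher and 7.56% lower at 24 h, and 5.08% higher and 6.45% lower at 48 h. Counts of every class below are read against these shares. The class median was 0.01 at 12 h, -0.14 at 24 h and -0.18 at 48 h. Of the 4 genes of family SLC1, 2 were lower at 12 h, 2 at 24 h and 1 at 48 h, and none was higher. SLC1A3, the glutamate and aspartate transporter best known from astrocytes, had 933 normalised reads at 12 h, 1188 and 1262 at 24 h, 889 and 834 at 48 h, against 1820 and 1560 in E8. Every XMD892 library lay below both E8 libraries, and SLC1A3 fell by 0.85 ± 0.19 at 12 h (adjusted p = 0.0062), by 0.46 ± 0.15 at 24 h (adjusted p = 0.042) and by 0.97 ± 0.15 at 48 h (adjusted p = 0.00020). The 24 h call was lost when any library but E8 replicate 2 was left out (adjusted p = 0.068 to 0.32) and with a replicate block (0.069). SLC1A1, which takes up glutamate and cysteine, had 144 at 12 h, 201 and 180 at 24 h, 205 and 203 at 48 h, against 319 and 269 in E8. It fell by 1.02 ± 0.24 at 12 h (adjusted p = 0.0099) and by 0.62 ± 0.19 at 24 h (adjusted p = 0.032, but 0.15 without E8 replicate 1 and 0.10 and 0.21 without either 24 h library), and at 48 h it did not pass (adjusted p = 0.086). SLC1A5, the main glutamine importer of dividing cells, had 4657 at 12 h, 5254 and 5147 at 24 h, 3711 and 3356 at 48 h, against 3546 and 4515 in E8. SLC1A5 did not pass at any time.

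Glutamine carriers of family SLC38 differed among themselves. SLC38A5, a sodium-coupled carrier of glutamine, asparagine and histidine, had 672 normalised reads at 12 h, 432 and 499 at 24 h, 359 and 306 at 48 h, against 619 and 661 in E8. The 12 h value was above both E8 values, and all later values were below them. Its fall at 48 h was 0.95 ± 0.17 on the log2 scale (adjusted p = 0.00080), while at 24 h the adjusted p was 0.066. SLC38A1, a glutamine carrier of higher level, had 7501 at 12 h, 6244 and 6562 at 24 h, 6163 and 6327 at 48 h, against 9433 and 8173 in E8. SLC38A1 fell by 0.46 ± 0.14 at 24 h (adjusted p = 0.029) and 0.49 ± 0.14 at 48 h (adjusted p = 0.024). These calls depended on single libraries, with an adjusted p at 24 h of 0.26 and 0.13 without either 24 h library, 0.075 without E8 replicate 1 and 0.051 without 48 h replicate 1. At 48 h it was 0.17 and 0.12 without either 48 h library. SLC38A10 had 2028 at 12 h, 2619 and 2480 at 24 h, 2018 and 2225 at 48 h, against 1221 and 1893 in E8. It rose at 24 h by 0.75 ± 0.17 (adjusted p = 0.0057), or by 0.43 without E8 replicate 1, and had an adjusted p of 0.074 at 48 h. SLC38A2, which did not pass at any time, had 7895 at 12 h, 8994 and 9079 at 24 h, 7468 and 7761 at 48 h, against 9900 and 8208 in E8.

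SLC15A3, a lysosomal exporter of histidine and small peptides, had 46.2 normalised reads at 12 h, 45.8 and 57.1 at 24 h, 40 and 33.7 at 48 h, against 98.7 and 121 in E8. All XMD892 libraries were below both E8 libraries. On the log2 scale it fell by 1.22 ± 0.35 at 12 h (adjusted p = 0.036, but 0.076 without E8 replicate 2, 0.078 with DESeq2, 0.056 after quantile normalization and 0.061 with a replicate block) and by 1.08 ± 0.29 at 24 h (adjusted p = 0.014, but 0.054 without E8 replicate 2 and 0.13 without 24 h replicate 1). At 48 h it fell 2.98-fold (-1.55 ± 0.29, adjusted p = 0.0012). The gene overlaps TMEM132A on the opposite strand. The strand setting of the counting is not given in the sources used here, so reads of such partners cannot be told apart. Of the 181 carriers, 68 overlap a listed gene on the opposite strand, and among those called they include SLC15A3, SLC1A1, SLC1A3, SLC12A9, SLC25A22, SLC25A25, SLC29A2, SLC35A4, SLC38A10 and SLC39A7.

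Carriers of the class that rose at 24 h included SLC3A2, the heavy chain that brings several light chains of family SLC7 to the cell surface. It had 8067 normalised reads at 12 h, 10662 and 9394 at 24 h, 8573 and 7875 at 48 h, against 5518 and 7422 in E8. All XMD892 libraries exceeded both E8 libraries, and the gene passed at 24 h with a rise of 0.65 ± 0.15 (adjusted p = 0.0069, but 0.096 without 24 h replicate 1). SLC43A2, a facilitative carrier of large neutral amino acids, had 541 at 12 h, 596 and 500 at 24 h, 469 and 452 at 48 h, against 305 and 383 in E8. SLC43A2 rose by 0.67 ± 0.18 at 24 h (adjusted p = 0.012, but 0.053 without E8 replicate 1 and 0.19 without 24 h replicate 1). None of the 6 carriers of family SLC7 described here passed at any time, among them SLC7A8, a light chain of SLC3A2 and the highest of the family, with 6837 at 12 h, 6705 and 7470 at 24 h, 7019 and 6118 at 48 h, against 5388 and 5782 in E8.

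SLC6A15, a sodium-coupled carrier of branched-chain amino acids and proline from the sodium-chloride-coupled family, was lower at every time. It had 263 normalised reads at 12 h, 254 and 300 at 24 h, 248 and 263 at 48 h, against 601 and 511 in E8. The 5 XMD892 values were close to each other and none reached the E8 values. The log2 fold changes were -1.07 ± 0.22 at 12 h (adjusted p = 0.0040), -1.0 ± 0.18 at 24 h (adjusted p = 0.00088) and -1.11 ± 0.18 at 48 h (adjusted p = 0.00029). The family's other 3 genes did not pass: SLC6A6 had 5336 and 4275 at 48 h against 5710 and 6540 in E8, SLC6A8, the creatine transporter, 2180 and 2205 at 48 h against 2194 and 2746 in E8, and SLC6A9, a glycine transporter, 312 and 299 at 48 h against 373 and 525 in E8. Nor did SLC5A3, which takes up myo-inositol (1145 and 1243 at 48 h, 1562 and 1433 in E8), or SLC5A6 (2158 and 1863 at 48 h, 2530 and 2738 in E8) at any time.

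Family SLC16, named the monocarboxylate class here, had a median of -0.59 at 12 h, -0.51 at 24 h and -0.64 at 48 h. The medians of all genes were 0.02, 0.01 and 0.02. SLC16A1 and SLC16A3 were set aside by name, and several genes of the class carry other substrates. The medians therefore do not describe monocarboxylate transport as such. Of the 8 genes of the class, 1 was lower and 1 higher at 12 h, 2 were lower at 24 h and 3 were lower at 48 h. SLC16A9, a carnitine transporter, had 572 normalised reads at 12 h, 311 and 286 at 24 h, 148 and 195 at 48 h, against 265 and 263 in E8. Its 12 h value was the highest of the 7 and its 48 h values were the lowest. It rose 2.17-fold at 12 h (1.11 ± 0.23, adjusted p = 0.0046) and fell by 0.63 ± 0.19 at 48 h (adjusted p = 0.034, but 0.35 without 48 h replicate 1, and 0.060 and 0.095 with the GC trend removed and E8 replicate 1 or 2 left out), with 48 h below 24 h by 0.81 ± 0.19 (adjusted p = 0.038, but 0.56 without 48 h replicate 1, and 0.31 and 0.074 without either 24 h library).

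SLC16A12, a creatine transporter, had 290 normalised reads at 12 h, 350 and 311 at 24 h, 251 and 295 at 48 h, against 529 and 411 in E8. SLC16A12 fell by 0.78 ± 0.19 at 48 h (adjusted p = 0.0086, but 0.13 without 48 h replicate 1). SLC16A14 had 40.8 at 12 h, 46.9 and 32.7 at 24 h, 48.6 and 48.6 at 48 h, against 86.4 and 94.2 in E8. SLC16A14 passed at 24 h (-1.18 ± 0.30, adjusted p = 0.0097, but 0.11 without 24 h replicate 2). For SLC16A12 and SLC16A14 every XMD892 library lay below both E8 libraries. SLC16A5 had 187 at 12 h, 236 and 253 at 24 h, 292 and 230 at 48 h, against 355 and 351 in E8. SLC16A5 passed at 12 h (-0.92 ± 0.23, adjusted p = 0.017). SLC16A10, a carrier of aromatic amino acids, had 294 and 399 at 48 h against 548 and 464 in E8 (adjusted p = 0.054).

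Of 21 carriers of metals and heme, 11 belong to the zinc family SLC39 and 5 to the zinc family SLC30. In the class 2 were lower at 12 h, 2 were higher and 1 lower at 24 h, and 4 were lower (19%) and none higher at 48 h. In family SLC39, which brings zinc and related metals into the cytosol, 3 of 11 were lower at 48 h. SLC39A8, which takes up zinc, manganese and iron, had 750 normalised reads at 12 h, 1174 and 1052 at 24 h, 751 and 737 at 48 h, against 1376 and 1212 in E8. It was low at 12 h and 48 h and nearer to E8 at 24 h, with log2 fold changes of -0.78 ± 0.19 at 12 h (adjusted p = 0.012), -0.22 ± 0.15 at 24 h (adjusted p = 0.36) and -0.80 ± 0.15 at 48 h (adjusted p = 0.0016). SLC39A14, its close relative and the highest of the family by mean, had 6098 at 12 h, 6599 and 6596 at 24 h, 5318 and 4594 at 48 h, against 7827 and 7644 in E8. SLC39A14 fell by 0.65 ± 0.14 at 48 h (adjusted p = 0.0039, but 0.093 without 48 h replicate 2). SLC39A10, a zinc importer of the plasma membrane, had 2215 at 12 h, 2562 and 2512 at 24 h, 2345 and 2677 at 48 h, against 4528 and 3356 in E8. Every XMD892 library was below both E8 libraries, and SLC39A10 fell by 0.82 ± 0.19 at 12 h (adjusted p = 0.010), 0.62 ± 0.16 at 24 h (adjusted p = 0.0098) and 0.64 ± 0.16 at 48 h (adjusted p = 0.0098), with adjusted p of 0.056 and 0.055 at 24 h without either 24 h library and 0.15 at 48 h without 48 h replicate 1.

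Other zinc importers rose at 24 h. SLC39A3 had 495 normalised reads at 12 h, 803 and 622 at 24 h, 599 and 572 at 48 h, against 361 and 549 in E8, with a rise of 0.67 ± 0.19 at 24 h (adjusted p = 0.022). SLC39A7, which releases zinc from the endoplasmic reticulum, had 3926 at 12 h, 4053 and 3706 at 24 h, 3472 and 3492 at 48 h, against 2062 and 3174 in E8, with a rise of 0.60 ± 0.17 at 24 h (adjusted p = 0.019). In both genes E8 replicate 1 was far below replicate 2. Without it the log2 fold change was 0.36 for SLC39A3 (adjusted p = 0.18) and 0.29 for SLC39A7 (adjusted p = 0.16). Without 24 h replicate 1 the adjusted p was 0.26 for SLC39A3 and 0.13 for SLC39A7. SLC39A1, the highest of the family per kb, had 4350 at 12 h, 4805 and 4727 at 24 h, 4218 and 3898 at 48 h, against 3718 and 4859 in E8. SLC39A1 did not pass.

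Among 5 zinc exporters of family SLC30, SLC30A3 passed at 48 h and no other passed at any time. SLC30A3, which loads zinc into synaptic vesicles in the brain, had 105 normalised reads at 12 h, 105 and 73.9 at 24 h, 41 and 48.6 at 48 h, against 95.2 and 105 in E8. Values at 12 h and of 1 library at 24 h were at the E8 level, and both 48 h values were below all others. The fall was 2.23-fold at 48 h (-1.14 ± 0.27, adjusted p = 0.0069, but 0.076 without 48 h replicate 1). SLC30A9, the highest exporter by mean, had 2264 at 12 h, 2234 and 2159 at 24 h, 2061 and 2412 at 48 h, against 2317 and 1990 in E8. SLC11A2, an importer of ferrous iron, had 1252 and 1098 at 48 h against 1498 and 1393 in E8 (adjusted p = 0.20), and SLC31A1, the copper importer, 1455 and 1390 at 48 h against 1570 and 1383 in E8 (adjusted p = 0.86).

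In the 29 carriers of ions, 2 were higher and 1 lower both at 12 h and at 24 h, and 2 were lower at 48 h. The lower gene at all 3 times was SLC24A2, a potassium-dependent sodium-calcium exchanger of neurons. It had 92.3 normalised reads at 12 h, 117 and 130 at 24 h, 99.3 and 104 at 48 h, against 361 and 294 in E8. The XMD892 values lay close together, far below both E8 values. The fall was 3.55-fold at 12 h (-1.81 ± 0.26, adjusted p = 0.00013), 2.66-fold at 24 h (-1.40 ± 0.21, adjusted p = 0.00016) and 3.22-fold at 48 h (-1.67 ± 0.21, adjusted p = 1.8e-05). SLC4A11, a proton and ammonia carrier of the corneal endothelium, had 459 at 12 h, 341 and 371 at 24 h, 336 and 229 at 48 h, against 432 and 477 in E8. SLC4A11 fell by 0.71 ± 0.19 at 48 h (adjusted p = 0.018, but 0.30 without 48 h replicate 2).

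SLC12A2, the sodium-potassium-chloride cotransporter that lets chloride into cells, had 700 normalised reads at 12 h, 528 and 529 at 24 h, 393 and 536 at 48 h, against 414 and 328 in E8. The 12 h library was the highest, and the gene rose by 0.92 ± 0.22 at that time (adjusted p = 0.013), with an adjusted p of 0.057 at 24 h. SLC12A9 of the same family had 1424 at 12 h, 1612 and 1415 at 24 h, 1080 and 1122 at 48 h, against 695 and 1049 in E8. It rose by 0.82 ± 0.17 at 24 h (adjusted p = 0.0031), or by 0.53 without E8 replicate 1, and by 0.74 ± 0.21 at 12 h (adjusted p = 0.037, but 0.079 without E8 replicate 1 and 0.059 and 0.057 without either 48 h library). SLC26A6, an exchanger of chloride, oxalate and bicarbonate, had 1010 at 12 h, 1034 and 994 at 24 h, 864 and 807 at 48 h, against 650 and 730 in E8. SLC26A6 rose by 0.56 ± 0.15 at 24 h (adjusted p = 0.017, but 0.17 and 0.094 without either 24 h library). No gene of the 6 sodium-proton exchangers of family SLC9 passed at any time.

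Mitochondrial carriers of family SLC25 were the largest class, and at 24 h 8 of 39 were higher (20.5%) and none was lower, against 8.66% and 7.56% of all genes. The share called in either direction was larger in 5 smaller classes, among them carriers of amino acids and peptides (25.9%) and of vitamins, nucleosides and choline (26.7%). At 12 h 1 was higher and at 48 h 1 was lower. The class median was 0.12 at 12 h, 0.21 at 24 h and 0.21 at 48 h. SLC25A22, which brings glutamate into mitochondria with a proton, had 1752 normalised reads at 12 h, 1832 and 1708 at 24 h, 1247 and 1299 at 48 h, against 903 and 1123 in E8. All XMD892 libraries were above both E8 libraries, and the gene rose by 0.80 ± 0.19 at 12 h (adjusted p = 0.011) and 0.81 ± 0.15 at 24 h (adjusted p = 0.0012), with an adjusted p of 0.16 at 48 h. SLC25A28, an importer of iron, had 338 at 12 h, 361 and 365 at 24 h, 305 and 291 at 48 h, against 176 and 240 in E8. SLC25A28 rose by 0.81 ± 0.19 at 24 h (adjusted p = 0.0060). SLC25A10, the dicarboxylate carrier, had 209 at 12 h, 311 and 326 at 24 h, 228 and 237 at 48 h, against 109 and 227 in E8. Its E8 replicate 2 was close to the 48 h libraries and its E8 replicate 1 was far below. The rise was 1.90-fold at 24 h (1.01 ± 0.25, adjusted p = 0.0081), and 0.49 on the log2 scale without E8 replicate 1 (adjusted p = 0.12).

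SLC25A1, which exports citrate, had 4095 normalised reads at 12 h, 6447 and 5687 at 24 h, 5055 and 4753 at 48 h, against 3359 and 4009 in E8. All XMD892 values were above both E8 values, with a rise of 0.72 ± 0.14 at 24 h (adjusted p = 0.0020, but 0.052 without 24 h replicate 1). Further rises at 24 h were 0.67 (SLC25A25, which exchanges ATP-magnesium for phosphate, adjusted p = 0.024), 0.51 (SLC25A39, 0.028) and 0.49 (SLC25A4, 0.045). SLC25A25 had 513 and 505 at 24 h against 252 and 407 in E8, SLC25A39 had 6023 and 5907 against 3524 and 4946, and SLC25A4 had 1843 and 1782 against 1073 and 1544. Without E8 replicate 1 their values were 0.32 (adjusted p = 0.25), 0.27 (0.19) and 0.23 (0.31). Without either 24 h library the adjusted p was 0.097 and 0.063 for SLC25A25, 0.15 and 0.098 for SLC25A39 and 0.22 and 0.13 for SLC25A4. SLC25A4 was also lost with edgeR (adjusted p = 0.060) and DESeq2 (0.071) and without either 48 h library (0.068 and 0.066). SLC25A43, the lower gene at 48 h, had 63.3 at 12 h, 78.1 and 93.5 at 24 h, 56.2 and 77.4 at 48 h, against 139 and 112 in E8 (-0.91 ± 0.26, adjusted p = 0.025, but 0.13 without E8 replicate 1, 0.25 without 48 h replicate 1, and DESeq2 gave 0.056). SLC25A6 had 14274 at 12 h, 18936 and 18682 at 24 h, 23058 and 19313 at 48 h, against 13179 and 20656 in E8, so that its E8 libraries spanned most of the XMD892 values, and it did not pass.

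**Figure D5:**
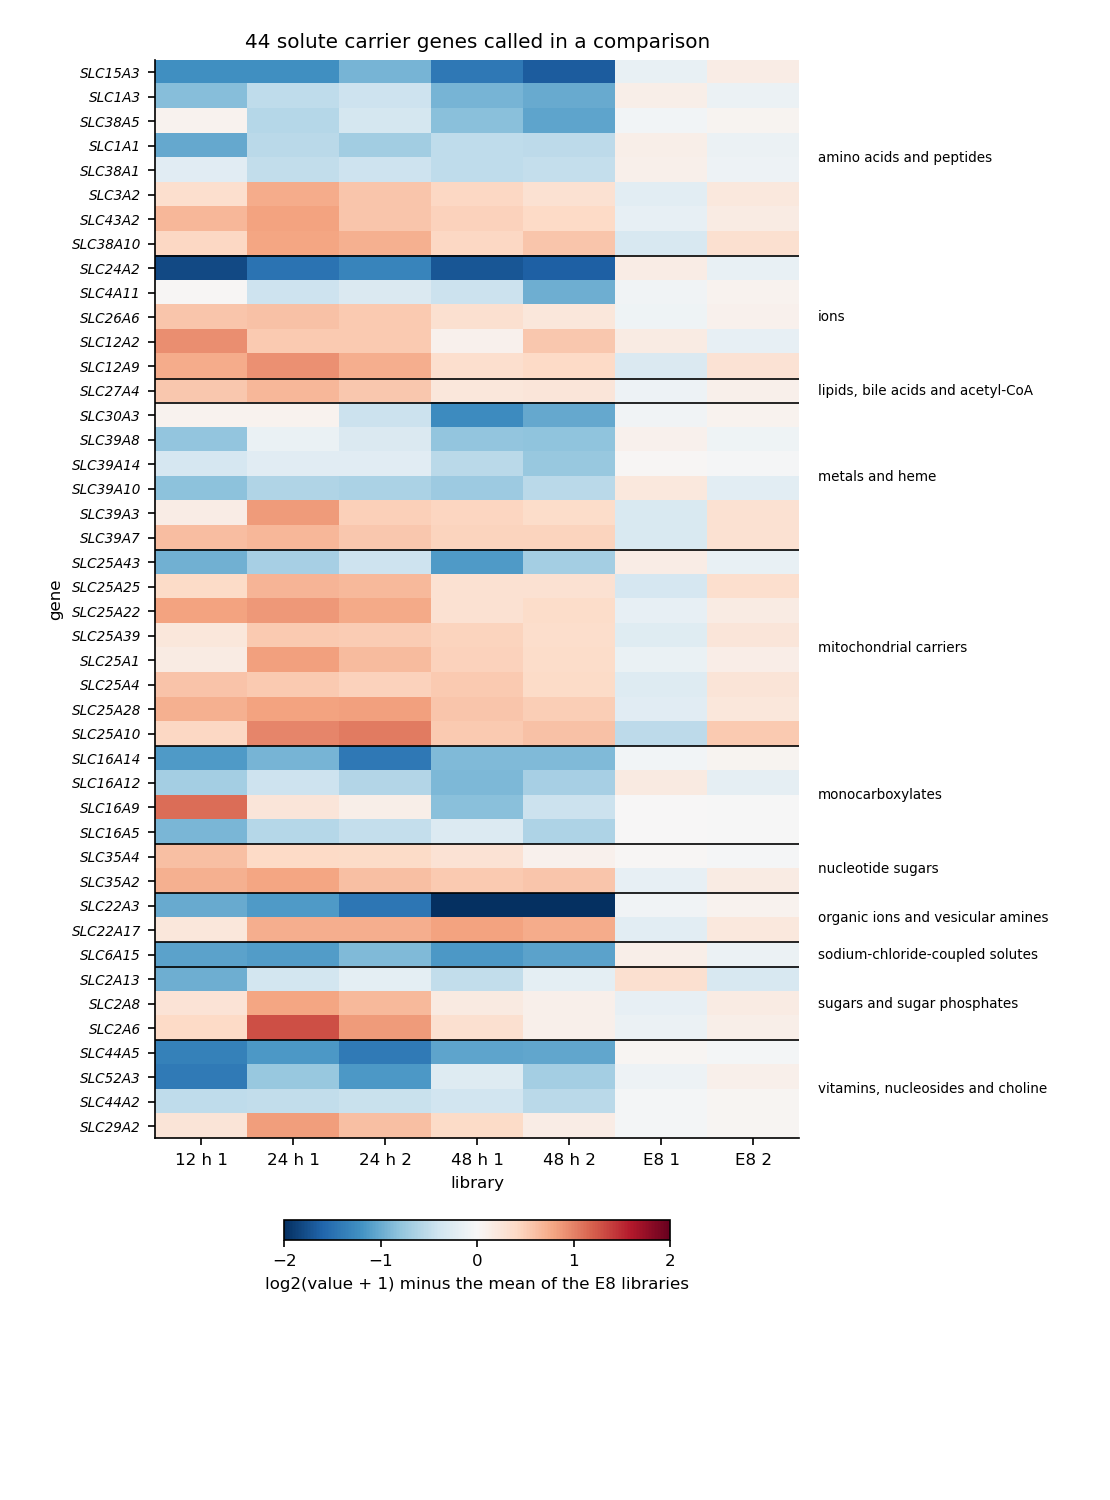
Log2(value + 1) minus the mean of the 2 E8 libraries for 44 of the 46 carriers called in at least 1 of the 4 comparisons, in each library, by transport class, with colours ending at -2 and 2. SLC22A3, SLC24A2, SLC15A3 and SLC6A15 are blue in all 5 XMD892 libraries, and the mitochondrial carriers other than SLC25A43 are red at 24 h.

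Of 14 sugar carriers, 1 was lower at 12 h, 2 were higher at 24 h and none passed at 48 h against E8. SLC2A6, an intracellular member of the glucose transporter family, had 481 normalised reads at 12 h, 895 and 659 at 24 h, 457 and 394 at 48 h, against 337 and 398 in E8. The 24 h libraries were above all others, and a 48 h library lay between the E8 values. SLC2A6 rose 2.11-fold at 24 h (1.07 ± 0.18, adjusted p = 0.00052) and was lower at 48 h than at 24 h by 0.86 ± 0.18 (adjusted p = 0.017, but 0.44 without 24 h replicate 1 and 0.088 and 0.19 without either 48 h library). SLC2A8, another intracellular glucose transporter, had 678 at 12 h, 967 and 877 at 24 h, 630 and 600 at 48 h, against 500 and 623 in E8. SLC2A8 rose by 0.72 ± 0.16 at 24 h (adjusted p = 0.0051, but 0.080 without 24 h replicate 1). SLC2A13, a proton-coupled carrier of myo-inositol, had 239 at 12 h, 369 and 413 at 24 h, 336 and 414 at 48 h, against 591 and 381 in E8. SLC2A13 fell by 0.98 ± 0.25 at 12 h (adjusted p = 0.016). SLC50A1, the highest of the class per kb, had 492 at 12 h, 668 and 557 at 24 h, 659 and 571 at 48 h, against 564 and 602 in E8. SLC50A1 did not pass.

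SLC35A2, which carries UDP-galactose into the Golgi apparatus for glycan synthesis, was higher at every time. It had 593 normalised reads at 12 h, 623 and 545 at 24 h, 520 and 532 at 48 h, against 320 and 405 in E8, and rose by 0.72 ± 0.21 at 12 h (adjusted p = 0.041), 0.69 ± 0.17 at 24 h (adjusted p = 0.0092) and 0.55 ± 0.17 at 48 h (adjusted p = 0.043). No XMD892 library reached down to the E8 values. These calls rested on single libraries: leaving out 1 gave an adjusted p of 0.060, 0.066 and 0.065 at 12 h (E8 replicate 1 or either 48 h library), 0.13 at 24 h (24 h replicate 1) and up to 0.20 at 48 h (any library but E8 replicate 2). The 12 h call was also lost with a replicate block (0.052), and the 48 h call with the same total per library, quantile normalization, DESeq2 and the block (0.051 to 0.061). SLC35A4 had 1978 at 12 h, 1706 and 1695 at 24 h, 1582 and 1387 at 48 h, against 1319 and 1282 in E8. SLC35A4 rose by 0.60 ± 0.18 at 12 h (adjusted p = 0.042, but 0.069 to 0.077 without any 24 h or 48 h library, 0.061 after quantile normalization and 0.12 with a replicate block). The other 3 genes of the family described here, SLC35A1, SLC35A3 and SLC35A5, did not pass at any time.

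Choline, nucleoside and vitamin carriers numbered 15, of which 2 were lower at 12 h, 3 lower and 1 higher at 24 h, and 2 lower at 48 h. SLC44A5 and SLC44A2 belong to the choline transporter-like family. SLC44A5 had 34.4 normalised reads at 12 h, 39.6 and 32.7 at 24 h, 42.1 and 42.6 at 48 h, against 91.7 and 85.9 in E8. All XMD892 values were below both E8 values. SLC44A5 fell by 1.34 ± 0.37 at 12 h (adjusted p = 0.027, but 0.057 without E8 replicate 1 and 0.071 with DESeq2), 1.28 ± 0.30 at 24 h (adjusted p = 0.0062) and 1.05 ± 0.30 at 48 h (adjusted p = 0.025, but 0.10 without E8 replicate 1, 0.13 and 0.11 without either 48 h library and 0.057 with DESeq2). SLC44A2 had 2519 at 12 h, 2560 and 2642 at 24 h, 2768 and 2472 at 48 h, against 3496 and 3691 in E8. SLC44A2 fell by 0.47 ± 0.14 at 24 h (adjusted p = 0.028, but 0.24 and 0.15 without either 24 h library) and by 0.46 ± 0.14 at 48 h (adjusted p = 0.038, but 0.075 to 0.28 without any 24 h or 48 h library and 0.065 with a replicate block).

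SLC52A3, a riboflavin importer, had 54.7 normalised reads at 12 h, 87.5 and 66.4 at 24 h, 123 and 92.2 at 48 h, against 138 and 159 in E8. Its values were lowest at 12 h and higher at each later time on average, and it fell by 1.42 ± 0.31 at 12 h (adjusted p = 0.0059) and 0.95 ± 0.25 at 24 h (adjusted p = 0.013, but 0.12 without 24 h replicate 2), with an adjusted p of 0.24 at 48 h. The related SLC52A2 had 1193 at 12 h, 1455 and 1258 at 24 h, 1041 and 1006 at 48 h, against 960 and 1224 in E8. SLC52A2 did not pass. SLC29A2, an equilibrative nucleoside transporter, had 981 at 12 h, 1455 and 1236 at 24 h, 1062 and 904 at 48 h, against 791 and 843 in E8. SLC29A2 rose by 0.71 ± 0.16 at 24 h (adjusted p = 0.0040, but 0.10 without 24 h replicate 1). The higher SLC29A1 had 4851 at 12 h, 5426 and 5394 at 24 h, 5097 and 4039 at 48 h, against 4092 and 4599 in E8. SLC29A1 did not pass. Of 9 carriers of lipids, bile acids and acetyl-CoA, SLC27A4 alone was called, with 1065 at 12 h, 1167 and 1071 at 24 h, 857 and 867 at 48 h, against 684 and 791 in E8. It rose by 0.60 ± 0.15 at 24 h (adjusted p = 0.011, but 0.16 without 24 h replicate 1).

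Transport genes with names of another form were read from lists chosen by function. Of 35 other carriers, 1 was higher and 3 were lower at 12 h (2.86% and 8.57%, against 2.56% and 4.89% of all genes), 7 were higher and 2 lower at 24 h (20% and 5.71%, against 8.66% and 7.56%), and 3 were higher and 1 lower at 48 h (8.57% and 2.86%, against 5.08% and 6.45%). MPC1, a subunit of the mitochondrial pyruvate carrier, had 469 normalised reads at 12 h, 501 and 440 at 24 h, 335 and 308 at 48 h, against 250 and 215 in E8. It rose by 1.01 at 12 h (adjusted p = 0.0056) and by 1.02 at 24 h (adjusted p = 0.00065), and did not pass at 48 h (adjusted p = 0.089). MFSD12, which is needed for the import of cysteine into lysosomes and melanosomes, had 1048 at 12 h, 1806 and 1596 at 24 h, 1149 and 1299 at 48 h, against 753 and 934 in E8. MFSD12 rose by 1.02 at 24 h (adjusted p = 0.00021) and 0.54 at 48 h (adjusted p = 0.029, but 0.088 without E8 replicate 1 and 0.094 and 0.23 without either 48 h library). SLCO5A1, of the organic anion family, had 351 at 12 h, 322 and 395 at 24 h, 256 and 317 at 48 h, against 662 and 633 in E8. SLCO5A1 fell by 0.88 at 12 h (adjusted p = 0.016), 0.86 at 24 h (adjusted p = 0.0028, but 0.062 without 24 h replicate 1) and 1.18 at 48 h (adjusted p = 0.00014). FLVCR1, a choline and heme carrier, had 3033 at 12 h, 4011 and 3489 at 24 h, 3101 and 3848 at 48 h, against 2435 and 2344 in E8. It rose by 0.65 at 24 h (adjusted p = 0.0055, but 0.12 without 24 h replicate 1) and 0.53 at 48 h (adjusted p = 0.022, but 0.29 without 48 h replicate 2).

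Of 18 partners and regulators of carriers, 1 was higher and 1 lower at 12 h. At 24 h 3 were higher and 2 lower, and at 48 h 1 was higher. These are 11.1%, 27.8% and 5.56% called, against 7.46%, 16.2% and 11.5% of all genes. Among those called was ARRDC3, an arrestin-like adaptor that removes membrane proteins. ARRDC3 had 457 at 12 h, 485 and 276 at 24 h, 400 and 420 at 48 h, against 265 and 201 in E8. ARRDC3 rose by 0.99 at 12 h (adjusted p = 0.028), 0.66 at 24 h (adjusted p = 0.043, but 0.056 to 0.65 without E8 replicate 2, 24 h replicate 1 or either 48 h library, and 0.051 with DESeq2) and 0.83 at 48 h (adjusted p = 0.017, but 0.087 and 0.11 without either 48 h library). BSG, the chaperone of lactate carriers of family SLC16, had 16468 at 12 h, 19861 and 21633 at 24 h, 19469 and 20306 at 48 h, against 12524 and 17896 in E8. BSG rose by 0.47 at 24 h (adjusted p = 0.047, but 0.36 without E8 replicate 1, 0.063 to 0.23 without any 24 h or 48 h library, 0.058 with edgeR and 0.065 with DESeq2). Sodium pump subunits set the gradient that many carriers use. Of 9, 1 was lower at 12 h, 2 were lower at 24 h and 1 was higher and 1 lower at 48 h. These are 11.1%, 22.2% and 22.2% called, against 7.46%, 16.2% and 11.5% of all genes. ATP1B2, a beta subunit, had 414 at 12 h, 393 and 510 at 24 h, 821 and 777 at 48 h, against 834 and 753 in E8. It fell by 0.93 at 12 h (adjusted p = 0.0070) and 0.82 at 24 h (adjusted p = 0.0024, but 0.089 without 24 h replicate 1), and at 48 h both values lay between those of E8. The rise between 24 h and 48 h was 0.83 (adjusted p = 0.012, but 0.36 without 24 h replicate 1, and 0.22 and 0.076 without either 48 h library). FXYD6, a regulator of the pump, had 201 at 12 h, 290 and 289 at 24 h, 445 and 350 at 48 h, against 230 and 196 in E8. FXYD6 rose by 0.89 at 48 h (adjusted p = 0.0036, but 0.10 without 48 h replicate 1).

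Among 24 ABC transporters, which use ATP directly, 2 were higher and 1 lower at 12 h, 4 were higher and 1 lower at 24 h, and 3 were higher and 2 lower at 48 h. These are 12.5%, 20.8% and 20.8% called, against 7.46%, 16.2% and 11.5% of all genes. ABCC10, an exporter of drugs and conjugates, had 809 at 12 h, 986 and 822 at 24 h, 976 and 798 at 48 h, against 414 and 528 in E8. It rose at all 3 times, by 0.79 at 12 h (adjusted p = 0.025), 0.94 at 24 h (adjusted p = 0.0010) and 0.92 at 48 h (adjusted p = 0.0014). ABCG2, a drug exporter present in many stem cells, had 106 at 12 h, 104 and 95.4 at 24 h, 71.3 and 53.6 at 48 h, against 148 and 120 in E8. ABCG2 fell by 1.09 at 48 h (adjusted p = 0.0057, but 0.088 without 48 h replicate 2). Of the 7 carriers set aside by name, 1 was higher and 1 lower at 12 h, and 2 were higher and 2 lower both at 24 h and at 48 h. These are 28.6%, 57.1% and 57.1% called, against 7.46%, 16.2% and 11.5% of all genes.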

How the data were processed

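RNA of 7 libraries of H1 cells was read in paired ends on a NextSeq 500 after oligo(dT) selection, per the labels' protocols. Per the submitters' processing notes, Trimmomatic 0.36, STAR, featureCounts 1.5.3, DESeq2 1.26.0 and the build hg38 were used. The deposited values, whose unit is treated as a signal, are gene reads divided by 1 factor per library, with no log. In the deposited columns 100% of values came out as whole reads within 0.1 once that factor was undone. The step of 1 library, 48 h replicate 2, failed an automatic check of this recovery, and the reads of all 7 libraries were still used for the count tools as an alternative. Per-sample columns that match no label (2), headed as further 12 h libraries of XMD892, were not used. Depth sets the counting error of low genes only.

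Fits used limma 3.58.1 (R 4.3.3) with a trend on log2(value + 1), genes with a mean of 10 or more, 1 mean per group over 7 libraries, and Benjamini-Hochberg adjustment over all genes tested. A call has an adjusted p under 0.05. Over all genes it made 1219 calls at 12 h, 2652 at 24 h, 1884 at 48 h and 197 between 48 h and 24 h, against 1182, 2612, 1872 and 183 by edgeR 4.0.16 and 1043, 2160, 1562 and 240 by DESeq2 1.42.0 on the recovered reads. Lengths, GC content (known for 98% of tested genes) and gene overlaps came from GENCODE 29. Alternatives were other pseudocounts, filters and scalings, the count tools, removal of the GC trend, a replicate block, and leaving out each library but that of 12 h.

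The members and lists were chosen with earlier results of these data known. Genes were named by rule: those called with the largest changes and no overlap of libraries in each comparison, up to 4 called genes and the highest gene of each class, families with calls both ways, the highest genes and those nearest the limit on the mean, and up to 4 called genes of each outside list. SLC1A5, SLC6A8, SLC6A9, SLC5A3, SLC16A10, SLC22A5, SLC18A2, SLC11A2, SLC31A1, SLC30A9 and SLC52A2 fall outside it and were chosen after their values were seen. A few genes that the rule takes, and their sequences, are not reported here.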

Additional observations from a re-analysis of the deposited data

Results flagged for a closer look

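The effects of XMD892 at 48 h and at 24 h share their E8 libraries, so their difference is the contrast between 48 h and 24 h, and it passed for 3 carriers. For SLC22A3 the effect at 48 h was lower than at 24 h by a log2 value of -1.45 (adjusted p = 0.0012 by limma), and every 48 h library was below every 24 h library. For SLC2A6 the difference was -0.86 (adjusted p = 0.017), as the rise at 24 h was followed by values near E8 at 48 h. For SLC16A9 it was -0.81 (adjusted p = 0.038), with values above E8 at 24 h and below it at 48 h. The calls of SLC2A6 and SLC16A9 were lost without single libraries, and that of SLC22A3 was kept in every setting run.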

How the results depend on the processing

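No named change among the 181 carriers reversed its direction under any of 6 settings that left out a library or 13 others. Leaving out a library could not reverse these changes, since the libraries compared did not overlap in any of them. Of their values under these settings, 134 lost the call and 1291 kept it. Calls held in all settings for 13 of 18 carriers at 12 h, 9 of 34 at 24 h, 7 of 20 at 48 h and 1 of 3 between 48 h and 24 h. Leaving out 1 library gave 15 to 43 calls at 12 h, 13 to 74 at 24 h, 11 to 57 at 48 h and 1 to 20 between 48 h and 24 h. No setting left out the 12 h library, and leaving out a 24 h or 48 h library changes only the spread used at 12 h. The shares of calls held at 12 h and at the other times are therefore not comparable. With the GC trend removed there were 40 calls at 12 h, 52 at 24 h, 43 at 48 h and 8 between 48 h and 24 h. With that trend removed and without E8 replicate 1 there were 31 calls at 12 h, 31 at 24 h, 19 at 48 h and 11 between 48 h and 24 h, and 9 of 34 calls at 24 h and 4 of 20 at 48 h were lost. Without E8 replicate 2 there were 37, 43, 38 and 11, and 8 of 34 and 2 of 20 were lost, a pair of settings chosen after seeing the data. DESeq2 gave 5 calls between 48 h and 24 h. The cause of these shifts was not tested. Calls lost with the GC trend removed and an E8 library left out as well are named above for SLC16A9 only. Deviations of same-numbered libraries from their group means had correlations of -0.035, -0.048 and -0.071. With so few libraries per group and a GC trend between the E8 libraries, these values cannot decide whether replicate numbers pair the libraries. A replicate block gave 18 calls at 12 h, 33 at 24 h, 19 at 48 h and 4 between 48 h and 24 h. The design has 1 or 2 libraries per group, no E8 cells at 12 h or 24 h and no vehicle, and carriers near a mean of 50 have the widest errors.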

Other observations

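Of the 64 carriers with a mean below 50, 35 could be tested, and those named here were chosen after their values were seen. At 12 h 1 of the 35 was higher and 2 were lower, at 24 h 1 was higher and 6 were lower (17.1%), and at 48 h 2 were lower and none was higher. Called in either direction were 8.57%, 20% and 5.71%, against 7.46%, 16.2% and 11.5% of all genes. SLC47A1, a proton-coupled exporter of organic cations, had 19.3 normalised reads at 12 h, 31.2 and 29 at 24 h, 15.1 and 23.8 at 48 h, against 91.7 and 76.0 in E8. It fell by 2.06 on the log2 scale at 12 h (adjusted p = 0.0055 by limma), 1.44 at 24 h (adjusted p = 0.0093, but 0.078 without E8 replicate 1) and 2.08 at 48 h (adjusted p = 0.00056). SLC25A18, a mitochondrial glutamate carrier like SLC25A22, had 62.3 at 12 h, 67.7 and 51.4 at 24 h, 24.8 and 18.8 at 48 h, against 14.8 and 19 in E8. It rose by 1.83 at 12 h (adjusted p = 0.014) and 1.75 at 24 h (adjusted p = 0.0027), and at 48 h 1 library lay within the E8 values (adjusted p = 0.59).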
